A study of Mus musculus with 4 samples.

Results

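Tbx5, the T-box gene of forelimb identity, and Tbx4, Pitx1 and Isl1, genes of hindlimb identity, were examined in the open chromatin of mouse forelimb buds. The members were these 4 genes out of 21911 protein-coding genes of the annotation. A peak was assigned to a gene if it overlapped the gene body (GENCODE M21) or the 50 kb on either side. By this rule 52 of the 75101 peaks in the 4 deposited lists belonged to the genes, 9 to Tbx5, 29 to Tbx4, 8 to Pitx1 and 6 to Isl1. The peaks merged into 35 regions out of 44692 in the series. ATAC-seq, which marks open chromatin by the insertions of the Tn5 transposase, had been done on dissected posterior forelimb buds of Swiss Webster embryos at embryonic stage E10.5 (35 somites). There were 2 wild-type (WT) libraries and 2 Shh-/- libraries, each from the pair of posterior buds of 1 embryo. The Shh-/- embryos carried the null allele Shh tm1amc in the whole embryo, and the labels name no treatment. The study asked how Hedgehog signaling changes chromatin accessibility, and these libraries hold only forelimb tissue, so forelimb was compared with hindlimb through the genes and not through the tissues.

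The type of a limb is set by transcription factors that are present before the bud grows out. TBX5 starts forelimb outgrowth by turning on Fgf10, and its own gene is switched on in the flank by rostral HOX proteins. In the hindlimb field PITX1, a homeodomain protein, gives hindlimb character and raises Tbx4, the T-box paralog of Tbx5, while ISL1, a LIM homeodomain protein, marks the hindlimb progenitors and is also known from heart progenitors and motor neurons. A gene of one limb type can nevertheless carry open elements in the other, since accessibility of an element and transcription of its gene are separate properties.

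The windows were of unequal length, because the genes were. Tbx5 lies on the plus strand of chromosome 5 (chr5:119832668-119885219, mm10) and had a window of 152.6 kb. Tbx4 lies on the plus strand of chromosome 11 (chr11:85886422-85916097), with a window of 129.7 kb. Pitx1 (chr13:55825051-55836192) and Isl1 (chr13:116298281-116309689) both lie on the minus strand of chromosome 13, with windows of 111.1 and 111.4 kb. The Tbx4 window took in the end of Tbx2, a T-box repressor gene, and the annotated gene Gm11444, so part of its peaks lay nearer to Tbx2 than to Tbx4.

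The lists were of unequal size, with 39080 and 11973 peaks in WT and 5589 and 18459 in Shh-/-. Here and below a pair of values stands for replicate 1 and then replicate 2 of a genotype. The lists hold no read counts, so the depth is unknown, and a peak that is missing was not called, which does not show closed chromatin. Since the tissue was measured in bulk, a region open in fewer cells and a region less open in each cell cannot be told apart. Promoter windows (2 kb before to 1 kb after an annotated start) of 5 limb mesenchyme markers held peaks for 5 and 2 genes in WT and for 3 and 5 in Shh-/-. Prrx1, which is also in a list used further below, was called in all 4 libraries. Of the 5 heart muscle and 5 motor neuron markers, 1 each (Myh6 and Chat) had a promoter peak in WT replicate 1 and 0 in the 3 other libraries, and Nkx2-5, Mnx1 and Olig2 were not called in any library. Of the 5 markers of ectoderm 2 and 0 were called in WT and 0 and 2 in Shh-/-, of the 5 of blood and endothelium 1 and 0 against 0 and 2, and of the 5 of muscle progenitors 3 and 1 against 0 and 3. Among all protein-coding genes, a promoter peak was called for 60.4% and 39.2% in WT and for 17.3% and 51.3% in Shh-/-. The mesenchyme count of WT replicate 2 was thus near the share over all genes. The part of these cell types in the results was not tested.

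Sequences are shown for the regions on which the comparisons turn, namely those called in the largest number of libraries for each gene, those called by genotype, the promoter for Pitx1, and a further Tbx4 region after the end of the gene, chosen with its PITX word known. The broad region near Tbx2, also called in 3 libraries and without that word, is not shown. They were read from the GRCm38.p6 assembly, the mm10 build, on the strand of the gene. A single capital marks the summit of a called peak, a pair of capitals marks neighbouring summits, and 6 capitals mark the word TAATCC, which PITX proteins bind. The region upstream of Tbx5 that 2 libraries shared (chr5:119795415-119795614, plus strand) had its summits at adjacent bases:
Tbx5 upstream: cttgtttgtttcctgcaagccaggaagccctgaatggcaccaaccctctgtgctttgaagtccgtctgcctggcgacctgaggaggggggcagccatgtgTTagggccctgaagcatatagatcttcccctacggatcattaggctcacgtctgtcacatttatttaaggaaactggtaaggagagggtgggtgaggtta
The region upstream of Tbx4 (chr11:85876201-85876500, plus strand) was the member region called in all 4 libraries, and all 4 summits lie in the stretch shown:
Tbx4 upstream: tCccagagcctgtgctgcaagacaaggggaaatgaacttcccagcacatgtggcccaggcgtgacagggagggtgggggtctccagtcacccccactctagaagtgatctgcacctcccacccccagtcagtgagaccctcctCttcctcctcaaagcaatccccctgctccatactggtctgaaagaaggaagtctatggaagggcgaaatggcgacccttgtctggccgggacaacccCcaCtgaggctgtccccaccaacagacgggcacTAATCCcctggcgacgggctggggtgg
The region after the end of Tbx4 (chr11:85917286-85917485, plus strand) was called in 3 libraries and is shown around its best ranked summit:
Tbx4 downstream: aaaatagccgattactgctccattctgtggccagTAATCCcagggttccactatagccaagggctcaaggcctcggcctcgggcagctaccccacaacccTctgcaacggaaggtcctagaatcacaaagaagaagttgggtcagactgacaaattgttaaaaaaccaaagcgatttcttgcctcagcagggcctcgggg
The Isl1 promoter (chr13:116309690-116309889, minus strand), called in 3 libraries, is shown up to the base before the transcription start:
Isl1 promoter: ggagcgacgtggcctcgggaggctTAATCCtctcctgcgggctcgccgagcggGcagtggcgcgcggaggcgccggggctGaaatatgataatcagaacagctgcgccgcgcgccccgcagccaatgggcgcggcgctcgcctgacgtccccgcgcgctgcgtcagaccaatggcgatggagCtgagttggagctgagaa
The Pitx1 promoter (chr13:55831641-55831840, minus strand) was called in a single library:
Pitx1 promoter: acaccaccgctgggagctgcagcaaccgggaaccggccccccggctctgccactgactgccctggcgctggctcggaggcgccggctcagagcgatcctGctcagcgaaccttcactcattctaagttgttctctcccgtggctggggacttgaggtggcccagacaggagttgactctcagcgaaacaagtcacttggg
The regions with calls in WT replicates 1 and 2 and no call in Shh-/- lay within Tbx4 (chr11:85910638-85910857, plus strand) and beyond the end of Isl1 (chr13:116293848-116294047, minus strand):
Tbx4 gene body: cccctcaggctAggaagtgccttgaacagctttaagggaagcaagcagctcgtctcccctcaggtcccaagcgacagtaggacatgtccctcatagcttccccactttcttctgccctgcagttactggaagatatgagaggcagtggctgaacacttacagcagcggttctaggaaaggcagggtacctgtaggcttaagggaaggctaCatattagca
Isl1 downstream: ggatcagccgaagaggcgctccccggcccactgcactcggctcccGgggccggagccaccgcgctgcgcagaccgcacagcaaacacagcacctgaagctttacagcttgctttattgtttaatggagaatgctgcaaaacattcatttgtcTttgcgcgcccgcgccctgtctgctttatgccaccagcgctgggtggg

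The number of peaks near Tbx5 was uneven between libraries. There were 6 and 0 peaks in WT and 0 and 3 in Shh-/-. The WT libraries held both the most peaks and none, so the genotypes overlapped. Among all protein-coding genes, 80.3% and 66.9% had a peak in a window drawn the same way in WT and 43.9% and 75.0% in Shh-/-. Tbx5 was thus among the genes without a call in the 2 shortest lists. In the longest list its density of 3.93 peaks per 100 kb exceeded that of 67.0% of protein-coding genes, and in Shh-/- replicate 2 its 1.97 peaks per 100 kb exceeded that of 66.1%.

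The 9 Tbx5 peaks formed 8 regions. Of these, 5 were called in WT replicate 1 alone, 2 in Shh-/- replicate 2 alone, and 1 in both. Among all merged regions, WT replicate 1 alone had 51.6%, Shh-/- replicate 2 alone 7.33%, and only these 2 together 11.0%. The shared region (chr5:119795257-119796055) lay 39.1 kb before the start of the full-length transcript (119834663), the only start in the basic GENCODE set. Distances for Tbx5 are counted from this start, which lies inside the gene body given above because a shorter transcript begins farther upstream. It ranked at 21.1% of the list in WT replicate 1, where 0 is the top of the list, and at 64.7% in Shh-/- replicate 2. RefSeq gives predicted Tbx5 transcripts with starts farther upstream, and the region ends 459 bp before the first of these (119796514), within 2 kb of it. It held 4 CG dinucleotides in the 200 bp shown above, with a GC content of 52.5%.

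The other Tbx5 peaks ranked lower. WT replicate 1 had a peak 30.7 kb upstream (chr5:119803578-119804157, at 37.0% of its list) and a peak over the first noncoding exon and the intron after it (chr5:119834965-119835600, at 41.4%). This was the only peak in the promoter window of Tbx5 itself, and the 3 other libraries had 0. A peak over exon 2, which holds the start of the coding sequence (chr5:119836807-119837355), ranked at 55.3%. Weak peaks of the same library lay 5.19 and 2.13 kb before that start and outside the gene body, in the noncoding gene Gm43050 and in its promoter window, at 79.5% and 91.8% of the list. Shh-/- replicate 2 had weak peaks 42.1 kb upstream (at 87.2%) and over coding exon 5 (chr5:119841703-119842046, at 94.8%). None of the 9 peaks lay between exon 5 and the end of the gene or in the 50 kb after it.

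**Figure D1:**
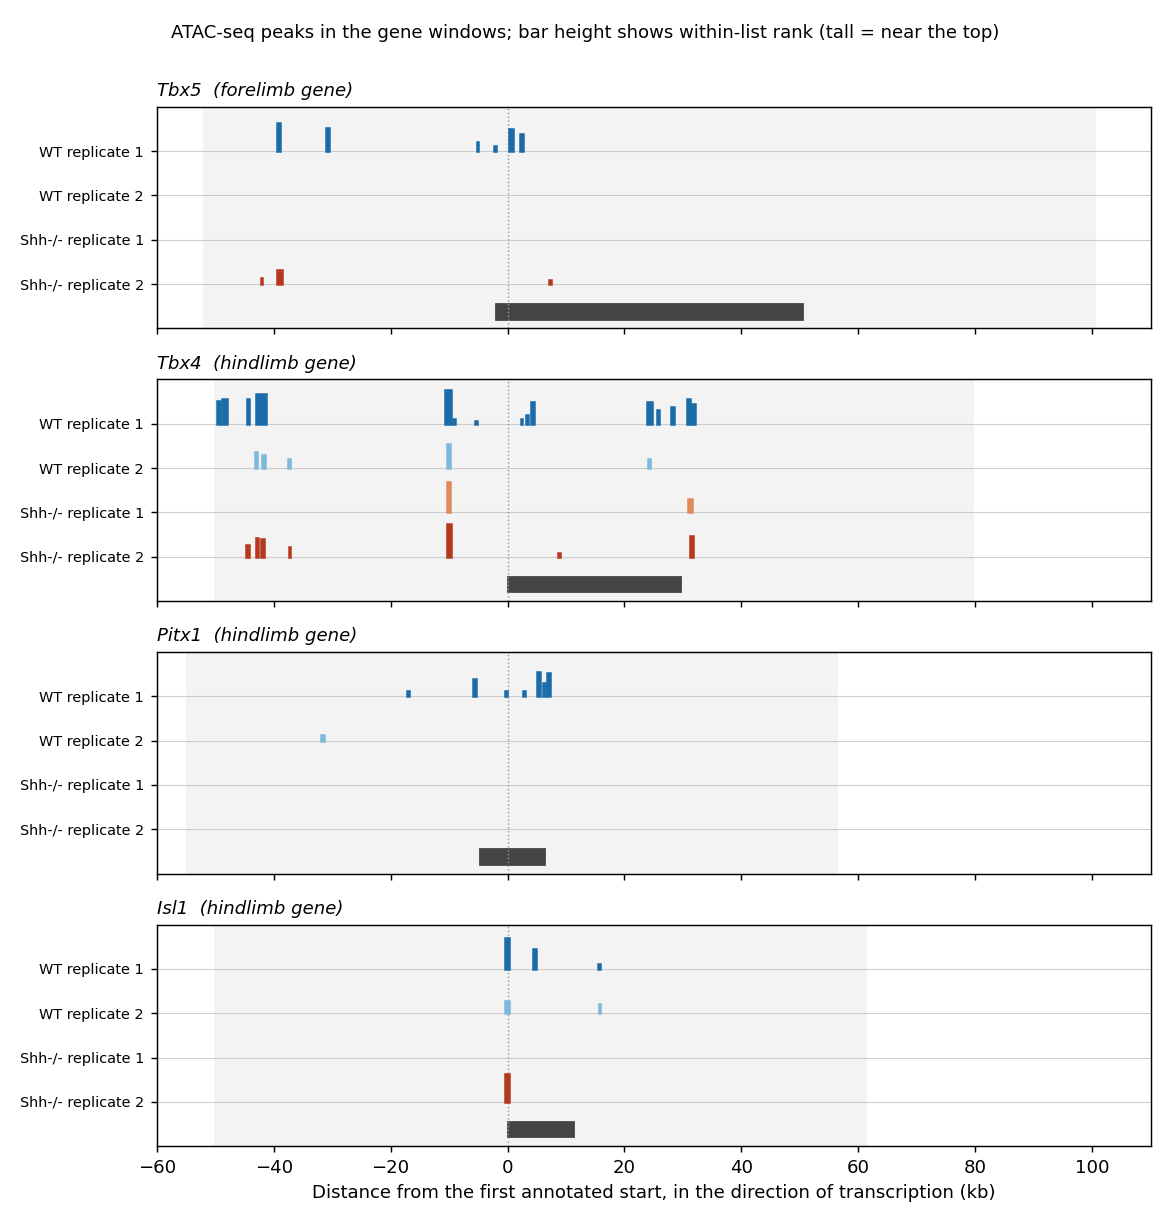
Peaks in the window of each gene (grey) against the distance in kb from its first annotated start, in the direction of transcription. Each row is a library, each bar a peak drawn with an outline so that narrow peaks stay visible, the height of a bar rises with its rank within its own list, and the dark bar is the gene body. The Tbx4 peak 10 kb upstream is present in all 4 rows, whereas Tbx5 has peaks in 2 rows.

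Tbx4 had 15 and 5 peaks in WT and 2 and 7 in Shh-/-, the highest count of the 4 genes in each library. Its density exceeded that of 90.3% and 91.4% of protein-coding genes in WT and of 85.3% and 92.3% in Shh-/-. Part of this rested on the stretch from Tbx2 to Gm11444, without which Tbx4 had 11 and 2 peaks in WT and 2 and 3 in Shh-/-. It then tied with Isl1 in WT replicate 2 and with Tbx5 in Shh-/- replicate 2. Over the unchanged window length, the Tbx4 density then exceeded that of 83.6% and 65.9% of genes in WT and of 85.3% and 69.6% in Shh-/-. A region 9.98 kb upstream of the first annotated start (chr11:85875789-85876821) had the best rank of all member regions. It ranked at 5.51% and 33.3% of the WT lists and at 16.6% and 9.39% of the Shh-/- lists. Of all merged regions 7.97% were called in all 4 libraries, and of the 35 member regions this was 1. The summits of WT replicate 1 and Shh-/- replicate 2 lay 3 bp apart and those of WT replicate 2 and Shh-/- replicate 1 lay 242 and 100 bp before that of WT replicate 1. The region had a GC content of 61.5% around its best ranked summit, close to the median of 62.0% for regions called in all 4 libraries.

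The remaining Tbx4 regions lay on both sides of this one. Nearer to the start, 2 weak regions were called in WT replicate 1 alone, at 91.8% and 98.5% of its list. After the end of the gene, a region (chr11:85917195-85918510) was called in WT replicate 1, at 31.1% and 47.2% of its list for its 2 peaks, in Shh-/- replicate 1 at 67.1% and in Shh-/- replicate 2 at 43.8%, and not in WT replicate 2. Within the gene, 7 regions were called, of which 5 were called in WT replicate 1 alone, 1 in Shh-/- replicate 2 alone and 1 in both WT libraries. The last of these (chr11:85910276-85911118) ranked at 41.4% in WT replicate 1, where the peak overlapped a coding exon, and at 79.9% in WT replicate 2, where it lay in the intron. Peaks in promoter windows of Tbx4 were called in WT replicate 1 (best at 41.4%) and Shh-/- replicate 2 (at 94.8%), all of them at starts inside the gene, and the window of the first start held 0 peaks in the 4 libraries.

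At the upstream end of the Tbx4 window, 5 regions lay over the last part of Tbx2, over Gm11444 or between these genes. The broadest (chr11:85843208-85845142) was 1935 bp long and was called in 3 libraries, at best at 16.1% and 58.3% of the WT lists and at 50.7% of the list of Shh-/- replicate 2. The best summits of the 5 regions were 37.2 to 49.4 kb from the first start of Tbx4. Peaks of that stretch were therefore left out in a separate comparison, given below.

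Pitx1, the homeodomain gene upstream of Tbx4, had 7 and 1 peaks in WT and 0 and 0 in Shh-/-. Each WT library thus had more than each Shh-/- library, but none of the 8 regions was called in more than 1 library. The best ranked were over coding exon 3 (chr13:55825849-55826413, at 33.7%) and just after the end of the gene (chr13:55824240-55824614, at 37.0%), both in the promoter window of the antisense gene Gm47071. The peak just before the annotated Pitx1 start (chr13:55831548-55831781) lay in an intron of a longer transcript and was among the weakest, at 91.8% of its list. The peak of WT replicate 2 (chr13:55862899-55863396), 31.9 kb upstream, ranked at 91.1%.

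Isl1, the LIM homeodomain gene, had 3 and 2 peaks in WT and 0 and 1 in Shh-/-. As for Pitx1, each WT library had more peaks than each Shh-/- library. This held for 2 of the 4 genes and for 8.16% of all protein-coding genes, and the reverse held for 0 of the 4 and for 0.0958% of all. It held for neither gene within gene bodies, with a score of at least 50 or with lists of equal size, only for Isl1 with 10 kb on either side and only for Pitx1 with 100 kb. The Isl1 promoter region (chr13:116309377-116310194) was called in 3 libraries, at 12.3% and 68.3% of the WT lists and at 24.1% of the list of Shh-/- replicate 2. The peaks covered the 5′ untranslated part of exon 1 and the sequence before the start, with 27 CG dinucleotides in the 200 bp shown. The region beyond the end of the gene (chr13:116293784-116294201) was called in both WT libraries and ranked low in both, at 91.8% and 79.9%. A further peak lay over coding exon 3 in WT replicate 1 (chr13:116304884-116305399, at 47.2%).

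Promoter calls at the 4 genes can be read against all protein-coding genes. A promoter peak was present for 60.4% and 39.2% of genes in the WT libraries and for 17.3% and 51.3% in the Shh-/- libraries. Isl1 had one in 3 libraries, Tbx4 in 2, and Tbx5 and Pitx1 in 1. Shh-/- replicate 1, the shortest list, had 0 promoter calls at the members. With promoter windows drawn from RefSeq starts, an alternative added once the results were known, Tbx5 had calls in 2 libraries (WT replicate 1 and Shh-/- replicate 2), both including the upstream region, Tbx4 in 1, Pitx1 in 1 and Isl1 in 3.

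**Figure D2:**
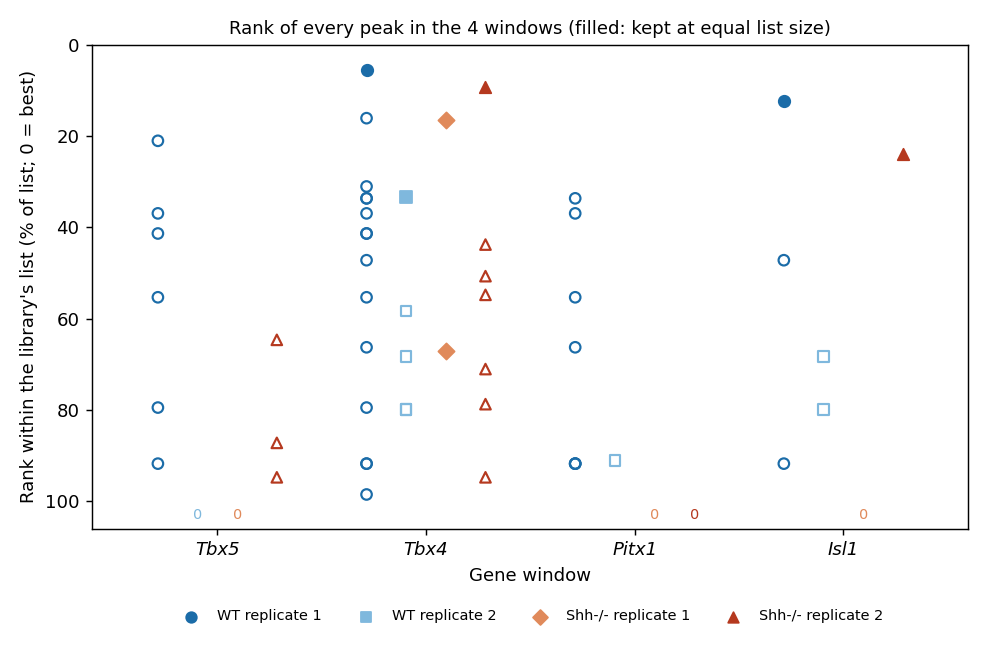
Rank of each of the 52 member peaks within its own list, in percent of the list (0 is the top), by gene window and library. Filled symbols are the 7 peaks that remain when each list is limited to its 5589 best scoring peaks, and a 0 marks a library without a peak. The filled symbols belong to Tbx4 (5) and Isl1 (2).

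The member peaks lay somewhat below the middle of their lists, which is where the median of all peaks falls by construction. Below that middle lay 31 of the 52. The median rank was at 56.8% over all 52, at 64.7% for Tbx5, 54.8% for Tbx4, 78.7% for Pitx1 and 57.8% for Isl1. When each list was limited to 5589 peaks, the size of the shortest, 50.7% and 50.8% of protein-coding genes had a peak in their window in WT and 43.9% and 50.2% in Shh-/-. Tbx5 and Pitx1 then had 0 peaks in the 4 libraries. Tbx4 had 1 peak in 3 libraries and 2 in Shh-/- replicate 1, and Isl1 kept its promoter peak in WT replicate 1 and Shh-/- replicate 2. The upstream Tbx4 region was called in all 4 libraries at this size as well.

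Next, Tbx5 was compared with the hindlimb genes within each library, in peaks per 100 kb of window. Tbx5 minus the mean of the 3 hindlimb genes was -2.92 and -2.18 in WT and -0.51 and -0.13 in Shh-/-. The forelimb gene was lower in 4 of 4 libraries, with a mean difference of -1.44 ± 1.33 (SD, n = 4; 1.47 for Tbx5 and 2.91 for the hindlimb genes). An exact two-sided permutation test of the paired differences gave p = 0.125, the smallest value that 4 libraries allow. Peaks covered 1.91% and 0% of the Tbx5 window in WT and 0% and 0.886% in Shh-/-, compared with 7.0% and 1.63% and with 0.898% and 2.55% of the Tbx4 window. For Pitx1 the shares were 2.22% and 0.448% in WT and 0% and 0% in Shh-/-. For Isl1 they were 1.41% and 0.813% in WT and 0% and 0.670% in Shh-/-. Tbx5 was thus above Isl1 in WT replicate 1 and above Pitx1 and Isl1 in Shh-/- replicate 2. It was below Pitx1 in WT replicate 1, below both in WT replicate 2, and tied with both in Shh-/- replicate 1. The share of the window covered gave a difference of -0.77 ± 0.67 percentage points (SD, n = 4; exact permutation test, p = 0.125). The libraries of both genotypes entered as replicates here. When all 4 differences have the same sign, this permutation test gives p = 0.125 whatever their spread, so the p-values do not measure that spread.

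The difference was largest against Tbx4. In 3 comparisons of Tbx5 with single genes, Tbx5 was lower than Tbx4 in 4 of 4 libraries (mean -4.12 ± 2.55 peaks per 100 kb, SD, n = 4; exact permutation test, p = 0.125, adjusted p = 0.375). Against Pitx1 it was lower in 2, equal in 1 and higher in 1 (mean -0.32 ± 1.81; exact permutation test, p = 0.75, adjusted p = 1). Against Isl1 it was lower in 1, equal in 1 and higher in 2 (mean 0.13 ± 1.39; exact permutation test, p = 1, adjusted p = 1). Between Tbx5, Pitx1 and Isl1 the densities, 1.47 ± 1.88, 1.80 ± 3.03 and 1.35 ± 1.16 peaks per 100 kb (mean ± SD, n = 4), differed by less than their spread. Tbx4 had the highest mean, 5.59 ± 4.29, and its gaps to the other means were also smaller than its own SD. Without the peaks from the start of Tbx2 to the end of Gm11444, an alternative also added with the results known, the mean difference between Tbx5 and the hindlimb genes was -0.73 (exact permutation test, p = 0.375). Tbx5 was then lower in 3 of 4 libraries and higher by 0.90 in Shh-/- replicate 2, so the common direction was lost. The Tbx4 densities in that case were 8.48 and 1.54 in WT and 1.54 and 2.31 in Shh-/-, each still above Tbx5. They were divided by the full window length of 129.7 kb, in which the stretch left out still counted. Tbx4 is thus set lower here than over the remaining stretch alone. Without WT replicate 1, and with all peaks, the mean difference was -0.94.

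**Figure D3:**
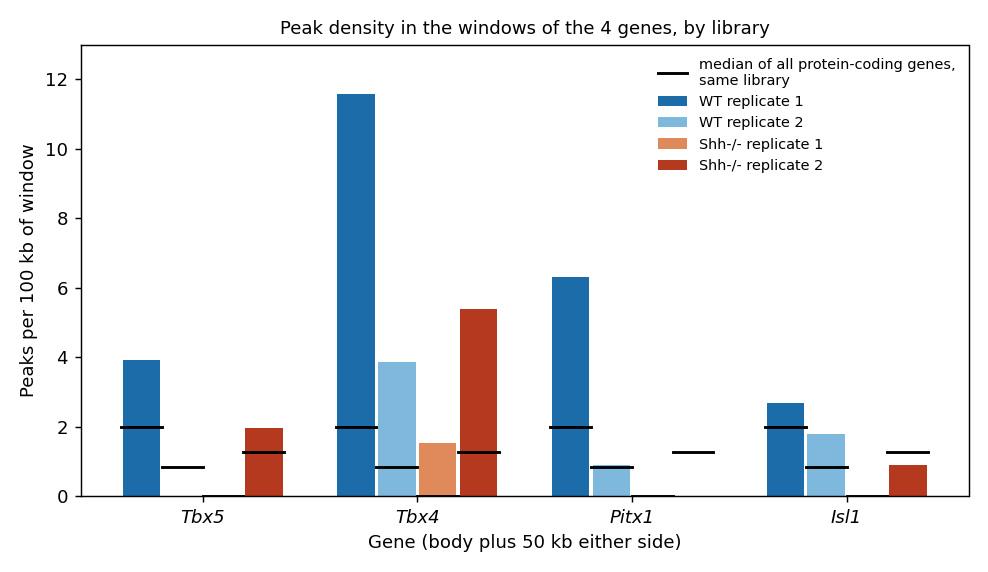
Peaks per 100 kb of window (bars) for the 4 genes in each of the 4 libraries, with the median of all protein-coding genes in the same library as a black line (at 0 for Shh-/- replicate 1). Tbx4 lies above the line in all 4 libraries and Tbx5 in 2.

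The genotypes were then compared over the same windows. The 4 windows together held 31 and 8 peaks in WT and 2 and 11 in Shh-/-. The means were 19.5 ± 16.3 in WT and 6.5 ± 6.36 in Shh-/- (SD, n = 2). The difference of 13 peaks was smaller than the SD of the WT libraries and larger than that of the Shh-/- libraries. A two-sided exact permutation test gave p = 0.667, where 0.333 is the lowest p that 2 against 2 libraries can give. The windows took 0.0793% and 0.0668% of the WT lists and 0.0358% and 0.0596% of the Shh-/- lists, and the order of the counts was that of the list sizes. Without WT replicate 1 the difference was 1.5 peaks, without WT replicate 2 24.5 and without Shh-/- replicate 1 8.5. For Tbx5 alone the difference was 1.5 peaks (3 in WT and 1.5 in Shh-/-; exact permutation test, p = 1), and it was -1.5 without WT replicate 1, 4.5 without WT replicate 2, 0 without Shh-/- replicate 1 and 3 without Shh-/- replicate 2.

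By region, 2 of 35 were specific to WT, with calls in both of its libraries and no call in Shh-/- (2.09% of all merged regions), namely those in Tbx4 and after Isl1, and 0 of 35 showed the reverse (0.396% of all merged regions). None of the 8 Tbx5 regions followed genotype. Neither was specific to WT among peaks with a score of at least 50 or in lists of equal size. A call in 1 library only was made for 26 of the 35 regions, or 74.3%, compared with 64.2% of all regions. WT replicate 1, the longest list, was that library for 22 of the 26. These were 62.9% of the 35 regions, compared with 51.6% of all regions. WT replicate 1 and Shh-/- replicate 2 were the only libraries to share a Tbx5 region, as they were for 11.0% of all regions.

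**Figure D4:**
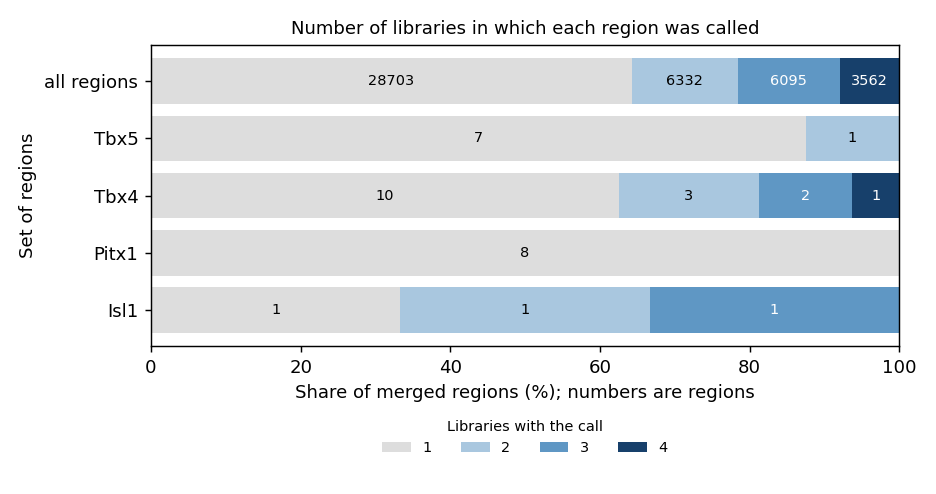
Share of merged regions (in %) called in 1, 2, 3 or 4 libraries, for all 44692 regions of the series and for the regions in each gene window, with the number of regions in each segment. The Tbx5 bar has 7 regions of a single library and 1 of 2 libraries, the Pitx1 bar only single-library regions, and the Tbx4 bar 1 region of all 4.

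Short sequence words were then looked for in the 200 bp around the best ranked summit of each region, on both strands and without mismatches. The PITX word TAATCC was found in 4 of 35 member regions (11.4%) and in 3.99% of all 44692 regions. The 4 were the upstream and the downstream region of Tbx4, the region after the end of Pitx1 and the Isl1 promoter, and 0 of the 8 Tbx5 regions held it. In the sequences shown it stands at bases 274 to 279 of the upstream Tbx4 stretch, 35 to 40 of the downstream one and 25 to 30 of the Isl1 promoter. The GLI consensus TGGGTGGTC (0.309% of all regions), the T-box word AGGTGTGA (0.935%) and the homeobox word TAATTA (4.03%) were found in 0 member regions. TAATCC and TAATTA share their first letters. A match is a description of the sequence and not a binding site. The median GC content was 57.8% for Tbx5 regions, 59.5% for Tbx4, 59.0% for Pitx1 and 60.0% for Isl1, compared with 55.5% for all regions.

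Promoter calls were also counted for listed genes that act with the members or share their domains. Of 11 genes known as inputs or targets of Tbx5 in the forelimb (Hoxa4, Hoxa5, Hoxb4, Hoxb5, Hoxc4, Hoxc5, Meis1, Meis2, Fgf10, Sall4 and Prrx1), 10 and 7 had a promoter peak in WT and 6 and 10 in Shh-/-. Fgf10, the target through which TBX5 starts outgrowth, was called in all 4, as were Meis1, Prrx1 and Hoxc5, and Hoxb5 was called in none. Of 4 Hox genes of more caudal identity (Hoxc8, Hoxc9, Hoxc10 and Hoxc11), 3 and 1 were called in WT and 0 and 0 in Shh-/-, and Hoxc11 was called in none. The shares over all genes are those given above for promoter peaks.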

How the data were processed

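The data were ATAC-seq peak lists from 2 WT and 2 Shh-/- posterior forelimb bud libraries, with genotype and replicate taken from the titles. The submitters' processing notes name Bowtie2 2.2.5, MACS2 2.1.0 and mm10 (GRCm38). The authors called peaks separately for every library, at a q-value below 0.05 and with 200 bp windows. How reads were filtered or shifted was not given in the sources used here. The score that the authors deposited with each peak (lowest value 14) is by the format of the caller 10 times the highest −log10 q, a scale the files do not state. It was used to rank peaks within a list, with ties given their mean rank, and for the alternative with a score of at least 50. That cutoff kept 43.9% and 46.6% of the WT lists and 71.3% and 67.6% of the Shh-/- lists, so it was not equally strict in each. The columns for fold, p and q hold 0 in every peak. Peak lists hold no counts, so the depth and the precision it gives are unknown, and the limma fit of the study to peak signal was not repeated.

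Gene bodies and starts were taken from GENCODE M21 (basic set), and sequences from GRCm38.p6, on which 0 peaks ended beyond a chromosome. Peaks that shared 1 bp or more formed a region. Tests were two-sided exact permutation tests over libraries. The functions for counting, merging and testing were checked on simulated data (Python 3.11.15, numpy 2.4.6, pysam 0.24.0). The members, gene lists, words and tests were chosen with earlier results of these data known. Regions named were those called in at least 2 libraries, peaks in member promoters, the best ranked distal peaks, and further peaks that were named with their values known. Alternatives were windows of 0, 10 and 100 kb, a score of at least 50, equal list size, summits in place of overlap, leaving out promoters of other genes, and leaving out each library. A listed gene is not reported here.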

Additional observations from a re-analysis of the deposited data

How the results depend on the processing

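The mean over libraries of Tbx5 minus the hindlimb genes stayed negative, in peaks per 100 kb and in covered share, under all 12 alternatives run. Several of these could not turn it. Counting summits and leaving out promoters of other protein-coding genes changed no peak. At equal list size Tbx5 had 0 peaks. Since all 4 differences were negative, leaving out single libraries could not give a positive mean. The direction was not kept in every library. Without the stretch from Tbx2 to Gm11444 it turned in Shh-/- replicate 2 (0.90 peaks per 100 kb and 0.28 percentage points, with means of -0.73 and -0.34 over the libraries), and in gene bodies Shh-/- replicate 1 was a tie at 0. The differences ranged from -6.73 peaks per 100 kb in gene bodies and -4.49 with 10 kb on either side to -0.61 with a score of at least 50 and -0.47 at equal list size. The covered share ranged from -2.04 to -0.33 percentage points between gene bodies and equal list size, and was -0.48 without WT replicate 1. With 4 libraries these tests cannot pass 0.05, so their p-values say nothing about stability.

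At equal list size the difference between WT and Shh-/- was reversed for the 4 windows (-0.5 peaks) and 0 for Tbx5. Leaving out single libraries gave 1.5 to 24.5 peaks for the 4 windows and -1.5 to 4.5 for Tbx5. The number of WT-specific regions was 0 with a score of at least 50 and 0 at equal list size, and ranged from 2 to 24 when single libraries were left out, the highest without WT replicate 2; that of Shh-specific regions ranged from 0 to 3, the highest without Shh-/- replicate 1. Fewer peaks or libraries enter these settings by construction. With the replicate numbers taken as a block the differences were 13 peaks (exact permutation test, p = 1) and 1.5 peaks (p = 1), with 0.5 the smallest value possible. The embryos share only a number, and nothing in the labels pairs them. Leaving out promoters of other protein-coding genes and counting summits in place of overlap did not change the 4 differences. Unknown depth limits all calls of absence.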

Other observations

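Beyond the windows, from 50 to 250 kb on either side, a distance chosen with the results known, Tbx5 had 23 and 1 peaks in WT and 1 and 2 in Shh-/- (replicate 1 and then replicate 2). A peak at the promoter of Tbx3, the T-box neighbor of Tbx5, was called in all 4 libraries, and the other promoters called there were those of Rbm19, Tbx3os1 and Gm16063. The 18 peaks away from promoters were called in WT replicate 1, and the 3 other libraries had 0. Tbx4 had 9 and 3 peaks in WT and 2 and 4 in Shh-/- at this distance, with peaks at the promoter of Tbx2 in 3 libraries, and Pitx1 had 17 and 4 in WT and 0 and 7 in Shh-/-, most of those of Shh-/- replicate 2 (6 of 7) at promoters. Isl1 had 1 and 0 in WT and 0 and 1 in Shh-/-.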
